A study of Mus musculus with 18 samples.

Results

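The genes described here are the 3 TGF-b ligands, Tgfb1, Tgfb2 and Tgfb3, and 5 receptors that bind or serve them, Tgfbr1, Tgfbr2, Tgfbr3, Acvrl1 and Eng. They were chosen by name, and all 8 were found among the 17001 gene symbols of the table of undifferentiated cells and the 15482 symbols of the table of differentiated cells. The 18 libraries, in 6 groups of 3 replicates, were made from poly(A) RNA of primary mouse preadipocytes, stromal cells that can become fat cells. All cells were wild type, and the series describes them as taken from epididymal fat. From mice on a control diet (CD) came a mock group, a group given the cytokine TGF-b1, and a group given TGF-b1 together with SB431542, a small-molecule inhibitor of the kinases of Tgfbr1 and its close relatives Acvr1b and Acvr1c. No group received SB431542 alone, and the labels state neither dose nor time of treatment. Mice on a high-fat diet (HFD) gave a further mock group. The groups named Itga5-High and Itga5-Low were sorted with an antibody to CD49e, the integrin alpha 5 protein encoded by Itga5, and were then taken through adipogenic differentiation; their diet is not given. Whether replicates were separate animals, pools of animals or separate cultures is not stated, so the p-values speak for the spread among these libraries alone, and that spread may be technical.

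TGF-b ligands are secreted in a latent form, held by their propeptide and by binding proteins in the matrix, and become active after release. An active ligand joins Tgfbr2, the type II receptor, to Tgfbr1, the type I receptor, whose kinase then phosphorylates Smad2 and Smad3. Acvrl1 is another type I receptor, best known from endothelium, which signals to Smad1 and Smad5. Tgfbr3 (betaglycan) and Eng (endoglin) are co-receptors without a kinase that bind ligand and pass it on, and betaglycan is known for presenting TGF-b2, which binds Tgfbr2 poorly by itself. In adipose tissue TGF-b is known as an inhibitor of fat cell formation and a driver of matrix production.

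Total counts per library ranged from 11154449 to 17288608, and the 18 pairs of replicates were close to counting noise, with a chi-square per degree of freedom of 1.15 to 1.26, where 1 is counting noise alone. The 10 preadipocyte markers were measured in every group and summed to between 1487 CPM with TGF-b1 and 3965 CPM with SB431542 added. CPM is the count of a gene scaled to a library size common to all libraries of a table. The 10 adipocyte markers summed to between 1477 and 1500 CPM in the CD mock libraries and between 7830 and 8499 CPM in the differentiated ones. Cells with markers of other types were also present. The 12 endothelial markers, none of them at 0, summed to between 470.6 and 491 CPM in CD mock, 202 and 206 with TGF-b1, 998.5 and 1023 with SB431542 added, and 146 and 155 in HFD mock. The 12 macrophage markers, none at 0 in these groups, summed to between 537 and 549 CPM in CD mock, 599.9 and 619 with TGF-b1, 1065 and 1087 with SB431542 added, and 2514 and 2541 in HFD mock. Both lists were low after sorting and differentiation, at 31.8 to 35.5 CPM for the endothelial and 22.5 to 44.7 CPM for 9 macrophage markers (Ptprc, Fcgr1 and Cd163 were not analysed there). The 8 markers of pericytes and smooth muscle summed to between 581 and 596 CPM in CD mock, and 707 and 710 with TGF-b1. Their sum was between 866 and 893 CPM with SB431542 added, and 560 and 578 in HFD mock. After sorting and differentiation it was 95.85 to 108 CPM. Itga5 itself was at 472 ± 8.82 CPM in Itga5-High and 329 ± 4.68 CPM in Itga5-Low (mean ± SD, n = 3), in the order of the sort. Where libraries were scaled by their total counts alone, the median log2 fold change of all genes moved by -0.15 for TGF-b1 against mock, by 0.26 for SB431542 added to TGF-b1 and by 0.11 for that group against mock. Genes called higher and lower were then 3068 and 6691 in place of 4705 and 4812 for TGF-b1, 8047 and 3446 in place of 5835 and 5388 for SB431542 against TGF-b1, 5962 and 2840 in place of 4303 and 4284 for SB431542 against mock, and 2675 and 5268 in place of 3821 and 3745 for HFD.

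All 8 genes were expressed in every library, with counts between 231 for Tgfb2 in an Itga5-High library and 7703 for Tgfbr2 in an Itga5-Low library. To compare genes with each other, levels were divided by transcript length (CPM per kb). In CD mock cells the level per length was highest for Eng, at 71.3 ± 0.439 CPM per kb, followed by Tgfb3 at 65.3 ± 0.523 and Tgfbr2 at 57.7 ± 1.32. Tgfb1 followed at 49.2 ± 0.817, then Tgfbr3 at 44.2 ± 0.723 and Tgfbr1 at 25.1 ± 0.341 CPM per kb. Acvrl1, at 20.4 ± 0.658, and Tgfb2, at 8.09 ± 0.215 CPM per kb, were the lowest. Each gap in this order was larger than the SDs on its sides. With TGF-b1 the order changed at its ends: Tgfb3 (99.4 ± 0.348 CPM per kb) and Tgfb1 (92.9 ± 2.82) stood above Eng (79.6 ± 2.07), and Tgfbr3 became the lowest of the 8 (10.3 ± 0.103). After sorting and differentiation Tgfbr2 led in both groups, at 77.9 ± 0.231 CPM per kb in Itga5-High and 91.8 ± 0.872 in Itga5-Low, with Tgfbr3 next. In Itga5-High, Tgfb3 (18.7 ± 1.05) and Eng (18.7 ± 0.454) were closer than their SDs, as were Acvrl1 (28.0 ± 0.272) and Eng (28.0 ± 0.341) in Itga5-Low.

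**Figure D1:**
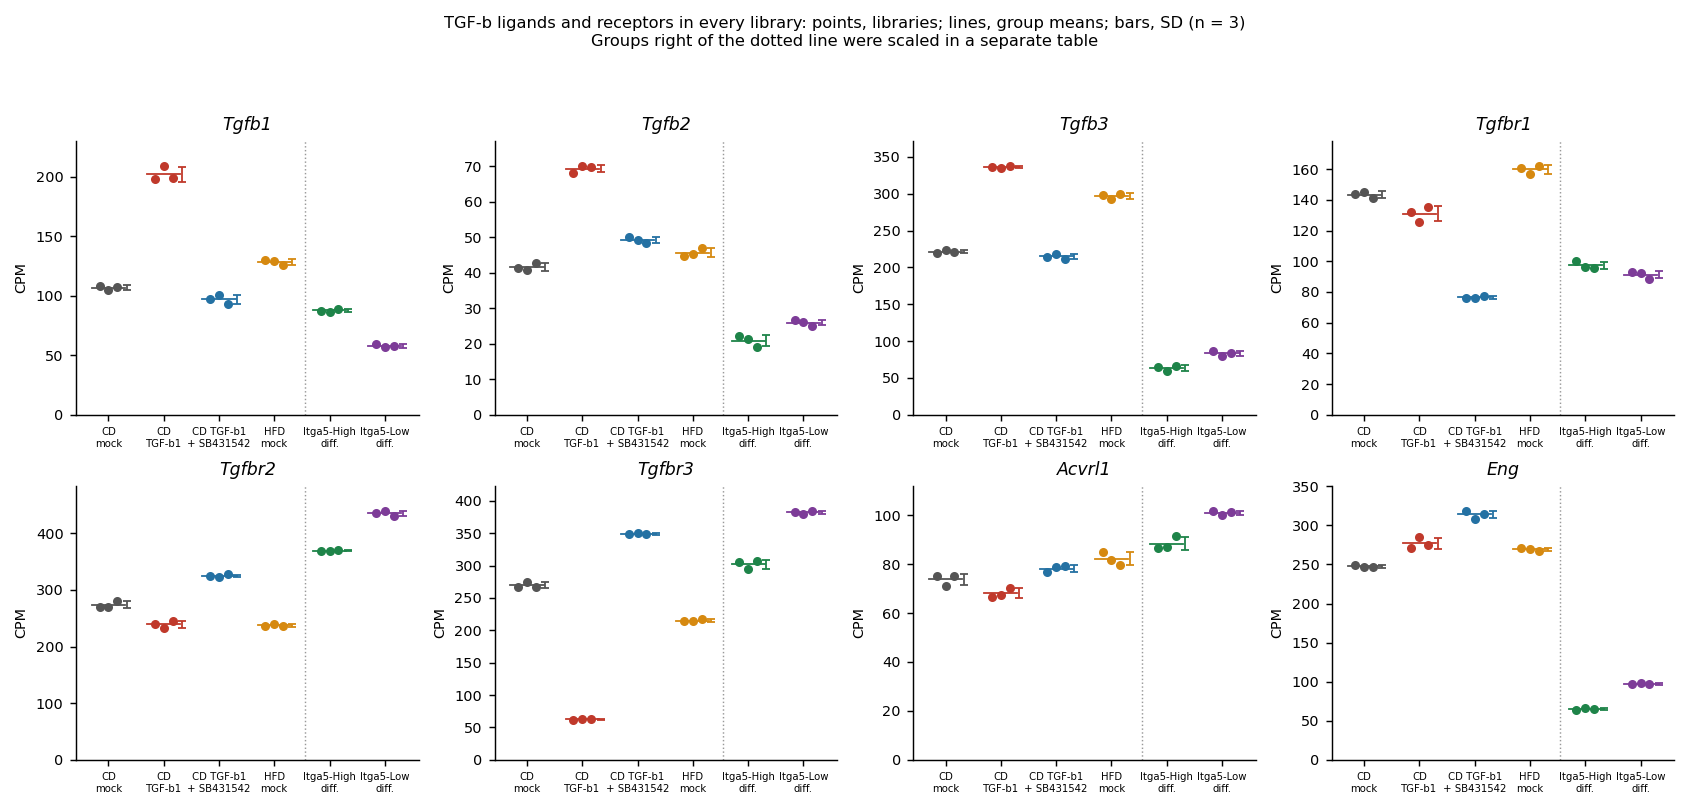
Level in CPM (vertical axis, from 0) of each ligand and receptor gene in the 6 groups (horizontal axis), with 1 point per library, a line at the mean and a bar for the SD of 3 libraries. Tgfbr3 stands at 62.1 to 63.2 CPM with TGF-b1 against 267 to 275 in CD mock, and the 3 ligands are highest with TGF-b1.

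Seen as shares of the summed CPM per kb of the 3 ligands, Tgfb3 made up 53.3 ± 0.596%, Tgfb1 40.1 ± 0.547% and Tgfb2 6.60 ± 0.163% in CD mock (mean ± SD, n = 3). Tgfb1 was the larger ligand only after sorting and differentiation, with 63.9% in Itga5-High and 47.2% in Itga5-Low against 29.6% and 43.8% for Tgfb3. The sum of the 3 ligands was 123 CPM per kb in CD mock, 206 with TGF-b1, 118 with SB431542 added, 156 in HFD mock, 63.1 in Itga5-High and 56.3 in Itga5-Low. Among the 5 receptors, Eng held 32.6 ± 0.284% in CD mock and 43.7 ± 1.12% with TGF-b1, while Tgfbr3 held 20.2 ± 0.365% and 5.66 ± 0.0392%. Of the pair of co-receptors alone, Tgfbr3 was 38.3% in CD mock, 11.5% with TGF-b1, 38.8% with SB431542 added, 31.3% in HFD mock, 72.6% in Itga5-High and 69.2% in Itga5-Low. Of the pair of type I receptors, Tgfbr1 was 55.1 ± 1.10% in CD mock, 54.9 ± 0.759% with TGF-b1, 38.2 ± 0.300% with SB431542 added and 55.1 ± 0.992% in HFD mock. The inhibitor group was thus the only undifferentiated group in which Acvrl1 was above Tgfbr1 per length. The tables of undifferentiated and differentiated cells were scaled separately, so levels across them stand side by side without a test.

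**Figure D2:**
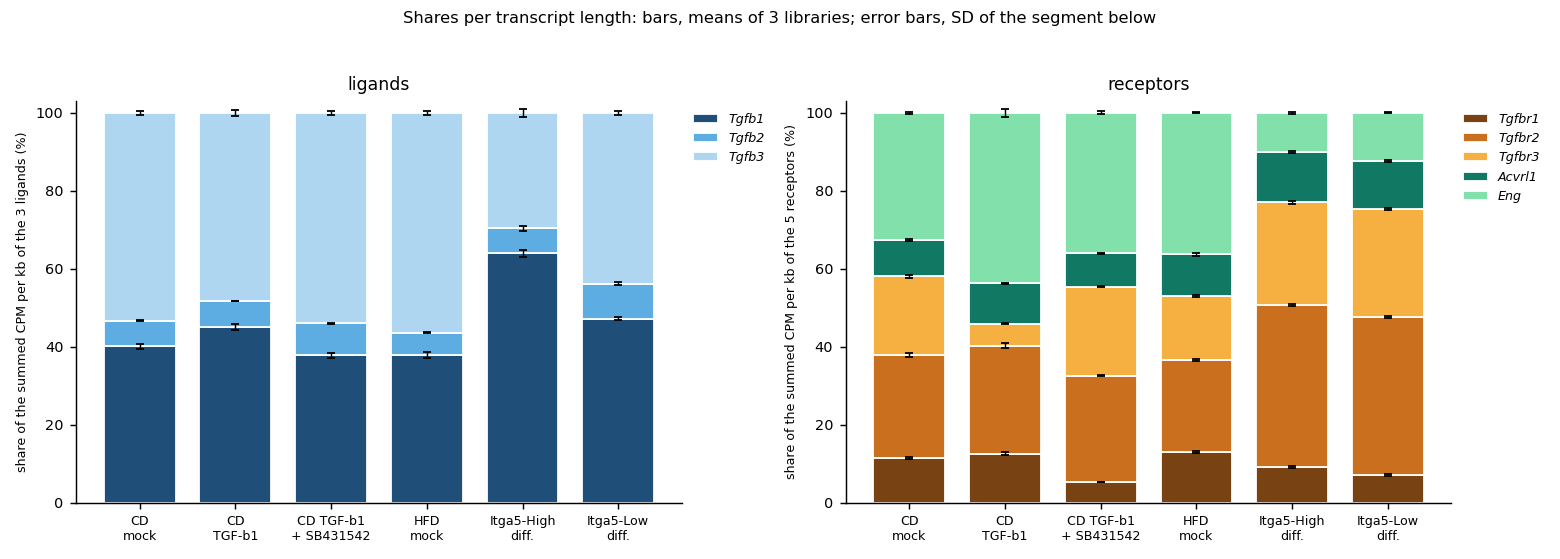
Share (%, vertical axis) of each gene in the summed CPM per kb of the 3 ligands (left) and of the 5 receptors (right) in the 6 groups, as stacked means of 3 libraries with the SD of each segment. Tgfbr3 shrinks from 20.2% to 5.66% of the receptors with TGF-b1, and Tgfbr1 is smallest, at 5.33%, with SB431542 added.

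Positions are given for genome build mm10 and span the transcripts of a gene in the deposited tables. Tgfb1 lies on chromosome 7 from 25687002 to 25705077, Tgfb2 on chromosome 1 from 186622792 to 186705989, and Tgfb3 on chromosome 12 from 86056743 to 86079041. Tgfbr1 lies on chromosome 4 from 47353222 to 47414924, Tgfbr2 on chromosome 9 from 116087695 to 116175363, and Tgfbr3 on chromosome 5 from 107106567 to 107289629. Acvrl1 lies on chromosome 15 from 101128522 to 101145336 and Eng on chromosome 2 from 32646595 to 32682669. Tgfb1, Tgfb3 and Tgfbr3 had 1 transcript each, Tgfb2 and Tgfbr2 had 2, Tgfbr1 and Eng 3 and Acvrl1 5.

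Tgfbr2, Tgfbr1 and Eng were counted as transcripts that differ in coding sequence, and the stretches that tell them apart are shown here because they change the receptor protein. They were read from GENCODE transcripts of build GRCm38 matched to the RefSeq transcripts of the tables, with the differing bases in capitals and up to 18 neighbouring coding bases in lower case.
Tgfbr2 extra exon, 75 bases, chr9:116158271-116158345, minus strand: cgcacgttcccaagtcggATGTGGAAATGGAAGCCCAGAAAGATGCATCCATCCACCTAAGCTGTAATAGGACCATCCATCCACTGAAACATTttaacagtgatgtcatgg
Tgfbr1 longer exon, 12 bases, chr4:47393247-47393258, plus strand: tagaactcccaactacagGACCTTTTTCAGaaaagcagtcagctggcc
Eng retained intron, 86 coding bases, chr2:32681298-32681383, plus strand: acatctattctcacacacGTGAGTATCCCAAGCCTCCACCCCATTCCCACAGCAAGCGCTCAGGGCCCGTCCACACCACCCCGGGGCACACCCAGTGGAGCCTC
The Tgfbr2 exon lies in the extracellular part of the receptor. The retained last intron of Eng replaces the end of the cytoplasmic tail, and the form that carries it is known as short endoglin. A further Tgfbr1 transcript starts at its own first exon and has neither the usual first coding exon nor an exon of 246 bases, chr4:47383749-47383994, of the extracellular part. The division of reads between such transcripts is the authors' estimate, and shares are given without a test.

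The Tgfbr2 transcript with the extra exon took 34.8 ± 2.09% of the gene's estimated counts in CD mock, 37.4 ± 5.0% with TGF-b1, 36.4 ± 2.10% with SB431542 added and 36.9 ± 5.53% in HFD mock. It took 33.9 ± 1.06% in Itga5-High and 37.3 ± 1.30% in Itga5-Low. The undifferentiated groups thus lay within their SDs. For Eng, the form with the retained intron took 33.7, 28.1 and 28.1% of the counts in the CD mock libraries and 40.9, 32.2 and 35.6% with TGF-b1, so that the libraries of the groups overlapped. The Eng form of full coding length took 40.2, 43.3 and 42.5% in CD mock and 33.8, 37.1 and 37.0% with TGF-b1, lower in each treated library. A further Eng form, 3 coding bases shorter and also without the retained intron, took 26.2, 28.6 and 29.4% in CD mock. With TGF-b1 it took 25.4, 30.75 and 27.3%, so its libraries overlapped. Both forms without the intron together make up the rest beside the intron form, so their joint share overlapped as well. The Tgfbr1 form with 12 further bases and the form without them were near equal in CD mock, at 41.5 ± 3.60% and 41.4 ± 2.59%. With SB431542 added, when the gene as a whole was lowest, they were at 38.8 ± 2.81% and 40.6 ± 3.20%.

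The windows before the annotated starts of Tgfb1, Tgfb2 and Tgfbr1 are shown because the ligands moved together with TGF-b1 and Tgfbr1 moved with the inhibitor. They hold the 250 bases upstream of each start, from RefSeq on build GRCm38.p6, 5′ to 3′ on the strand of the gene, with the core of the Smad box (CAGAC, or GTCTG on the other strand) in capitals.
Tgfb1, chr7:25686752-25687001, plus strand: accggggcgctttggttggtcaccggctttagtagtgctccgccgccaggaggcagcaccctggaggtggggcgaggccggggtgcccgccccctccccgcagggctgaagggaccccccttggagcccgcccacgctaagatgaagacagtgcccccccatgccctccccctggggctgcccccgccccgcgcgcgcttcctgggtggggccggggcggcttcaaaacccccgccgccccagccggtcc
Tgfb2, chr1:186705990-186706239, minus strand: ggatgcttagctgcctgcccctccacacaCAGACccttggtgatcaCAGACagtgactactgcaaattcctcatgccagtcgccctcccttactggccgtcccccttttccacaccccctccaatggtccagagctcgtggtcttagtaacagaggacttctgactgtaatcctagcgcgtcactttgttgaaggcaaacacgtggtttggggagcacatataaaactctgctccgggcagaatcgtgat
Tgfbr1, usual start, chr4:47352972-47353221, plus strand: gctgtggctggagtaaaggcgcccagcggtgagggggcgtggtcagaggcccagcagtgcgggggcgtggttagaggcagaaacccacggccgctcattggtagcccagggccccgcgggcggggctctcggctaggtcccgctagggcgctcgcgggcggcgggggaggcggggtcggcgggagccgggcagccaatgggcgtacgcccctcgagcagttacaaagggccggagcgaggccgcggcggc
Tgfbr1, further start, chr4:47385966-47386215, plus strand: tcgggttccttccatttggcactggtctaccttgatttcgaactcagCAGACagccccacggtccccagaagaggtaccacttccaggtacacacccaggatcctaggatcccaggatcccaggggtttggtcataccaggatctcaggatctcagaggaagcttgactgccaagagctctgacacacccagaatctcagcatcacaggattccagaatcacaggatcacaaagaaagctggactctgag
The windows differed in base composition, with 75.2% G and C for Tgfb1 and 74.8% at the usual Tgfbr1 start against 53.6% for Tgfb2 and 52.8% at the further Tgfbr1 start. The Smad box core was found 2 times for Tgfb2, once at the further Tgfbr1 start, and at neither the Tgfb1 start nor the usual Tgfbr1 start. The Tgfbr2 window held 1 and the Eng window 2. These letters occur in 42.2% of all 32851 promoter windows of this length, so a match is common. The GC box GGGCGG (both strands, overlapping matches counted) was found 5 times for Tgfb1 and 2 times at the usual Tgfbr1 start, and occurs in 32.7% of windows. The Tgfb2 window also held a TATA box (TATAAA, in 12.4% of windows) and an E-box (CACGTG, in 6.02%), while the AP-1 letters TGACTCA (in 4.46%) were in none of the 6 windows of these genes. Promoters of Tgfb3, Tgfbr3 and Acvrl1 were not analysed here.

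TGF-b1 against mock addressed the effect of the cytokine on the genes of its own ligands and receptors in CD preadipocytes. All 3 ligand genes rose, by 1.52- to 1.89-fold. Tgfbr3 fell 4.29-fold, while the signalling receptors Tgfbr1, Tgfbr2 and Acvrl1 fell by 1.08- to 1.14-fold and Eng rose 1.12-fold. All 8 genes passed the threshold of 0.05 for the adjusted p, with 4 higher and 4 lower, and are named called in what follows. Of 14078 genes tested, 67.6% were called, 33.4% higher and 34.2% lower, so a call by itself was common and the sizes carry more than the count. In these bulk libraries, fewer cells of a type and less RNA per cell cannot be told apart.

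Tgfb1, the isoform that was itself added as protein, was at 109, 105 and 107 CPM in the CD mock libraries and at 198, 209 and 199 with TGF-b1. Each treated library was above each mock library. The share of all genes whose libraries stood apart was not counted, and with replicates this close such a separation by itself says little. The log2 fold change was 0.92 ± 0.030 (± SE; edgeR adjusted p = 2.15e-28), and 16.8% of the genes tested changed by more in either direction. Tgfb2 was at 41.3, 40.7 and 42.8 CPM in mock and at 68.1, 70.1 and 69.9 with TGF-b1. Its groups did not overlap either, and the log2 fold change was 0.74 ± 0.047 (adjusted p = 1.72e-19). Tgfb3, the most abundant ligand in mock cells, was at 219.6, 223 and 221 CPM in mock and at 336, 335 and 338 with TGF-b1. Its groups stood apart as well, with a log2 fold change of 0.60 ± 0.021 (adjusted p = 3.94e-26).

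Tgfbr3, which encodes betaglycan, was at 267, 275 and 267 CPM in mock and at 62.1, 63.2 and 63.1 with TGF-b1. The treated libraries lay far below the mock ones, with a log2 fold change of -2.10 ± 0.031 (adjusted p = 7.37e-42). Only 4.99% of the genes tested changed by more in either direction. Summed markers of 4 cell types were lower over the same comparison. The mesothelial sum went from between 2484 and 2523 to between 724 and 739 CPM with 9 of 10 markers called lower and none at 0, and 11 of 12 endothelial markers were called lower. The adipocyte sum went from between 1477 and 1500 to between 252 and 261 CPM with 10 of 10 called lower, and the preadipocyte sum from between 2991 and 3015 to between 1487 and 1503 CPM with 9 of 10 called lower. The part of these changes in the level of Tgfbr3 was not tested. Tgfbr2 was at 269.5, 270 and 281 CPM in mock and at 239.8, 233 and 244 with TGF-b1. The groups did not overlap, and the log2 fold change was -0.19 ± 0.022 (adjusted p = 5.96e-09). Tgfbr1 was at 144, 145 and 141 CPM in mock and at 132, 126 and 136 with TGF-b1, lower in each treated library (log2 fold change -0.13 ± 0.030, adjusted p = 2.32e-04). Most genes tested, 76.9%, changed by more than that. With the most abundant transcript only, Tgfbr1 was at -0.09 and not called (adjusted p 0.359, range over alternatives 5.23e-11 to 0.359). With total-count scaling the changes were larger, at -0.28 for Tgfbr1 and -0.34 for Tgfbr2.

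Acvrl1 was at 75.1, 71.1 and 75.1 CPM in mock and at 66.5, 67.4 and 70.3 with TGF-b1. The groups came close to each other, with a log2 fold change of -0.11 ± 0.041 (adjusted p = 0.0125). The call was lost, with a change of similar size, without CD mock replicate 1 (-0.09, adjusted p 0.0559), CD mock replicate 3 (-0.09, 0.0568) or TGF-b1 replicate 1 (-0.09, 0.0634) and with DESeq2 (-0.10, 0.072). With the most abundant transcript only it was -0.13 (adjusted p 0.465) and with total-count scaling -0.26 (adjusted p 1.65e-07), the ends of the range over alternatives. Eng was at 249.7, 247 and 246 CPM in mock and at 271, 285 and 275 with TGF-b1, above mock in each library (log2 fold change 0.16 ± 0.021, adjusted p = 1.66e-07). With total-count scaling the change of Eng was 0.01 and not called (adjusted p 0.655, range over alternatives 5.02e-10 to 0.655), and with the most abundant transcript only it was -0.07 and not called. Both genes are well known from endothelium, whose marker sum fell over the same comparison to between 202 and 206 CPM. Eng was higher in the libraries where these markers were lower, and the part of endothelial cells in its level was not tested. The sum of 8 pericyte and smooth muscle markers was at 707 to 710 CPM, above mock, but only 3 were called higher and 5 lower. The sum followed Cspg4, at 189.5 against 27.7 CPM in mock, while Notch3 was at 37.7 against 85.9 CPM. The part of cells with these markers in the level of Eng was not tested either.

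**Figure D3:**
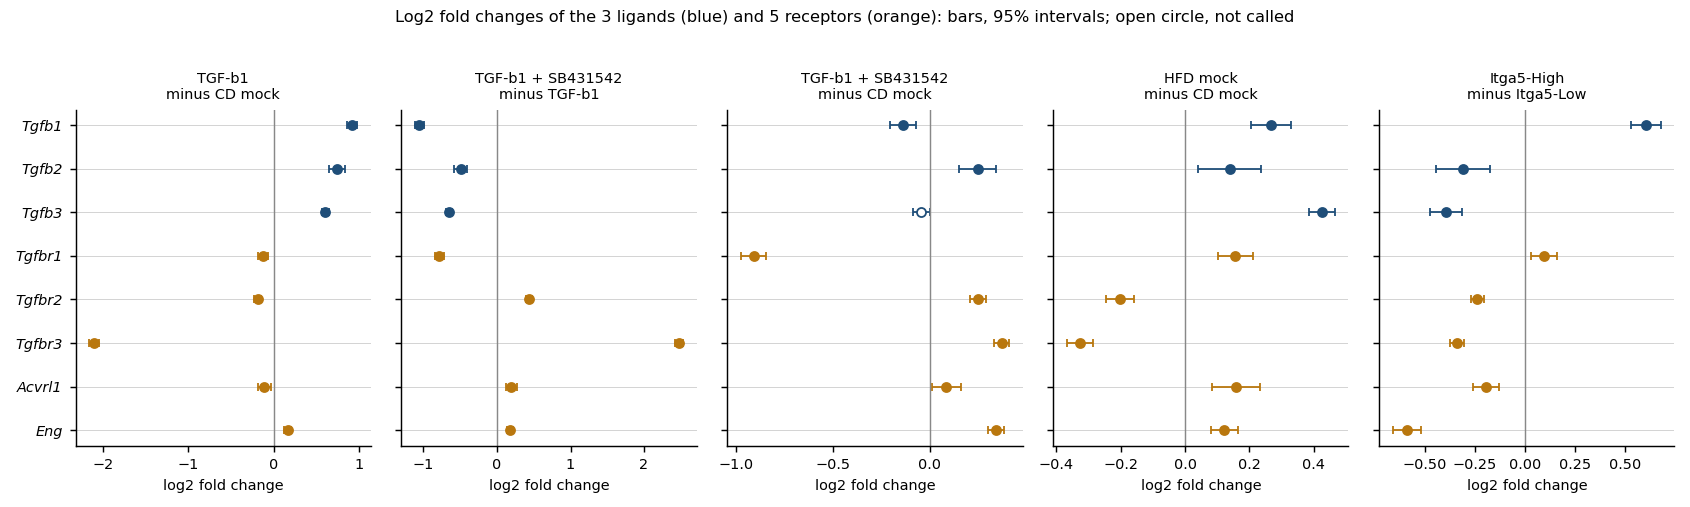
Log2 fold change (horizontal axis, own scale in each panel) with its 95% interval for the 3 ligand and 5 receptor genes in the 5 comparisons. Filled points were called at an adjusted p under 0.05, and the open point is Tgfb3 in SB431542 with TGF-b1 against mock, at -0.04. Its interval runs from -0.086 to -0.000. Intervals come from a separate fit with raised dispersions and not from the test behind the calls.

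The pathway around these genes was counted by lists. Among 10 TGF-b and Smad3 targets, 9 were called higher with TGF-b1 and 1, Fn1, lower (log2 fold change -0.75 ± 0.0069). The median log2 fold change of this list was 1.06, beside -0.02 for all genes tested. Ccn2, a secreted matricellular protein, changed by 1.75. Among 15 genes of ligand latency and activation, 10 were higher and 4 lower, with a median of 0.35. Ltbp1, which binds latent ligand in the matrix, rose from 34.5 ± 1.85 to 116 ± 1.87 CPM, and Furin, which cleaves the propeptide, rose from 162 ± 3.41 to 276 ± 1.43 CPM. Lrrc32, which displays latent ligand on the cell surface, rose from 998 to 1417 CPM, and Thbs1, an activator of latent ligand, from 2465 to 8532 CPM. Itgb8, the subunit of another activator, the integrin alpha v beta 8, fell from 18.7 ± 1.25 to 0.539 ± 0.199 CPM. Among 20 Smads and regulators of receptor signalling, 10 were higher and 5 lower, with a median of 0.07. Smad7, the inhibitory Smad that targets Tgfbr1 for turnover, rose from 88.8 to 145 CPM. Pmepa1, an inhibitor of Smad signalling, rose from 196 to 666 CPM, and Smad3 fell from 136 to 60.6 CPM. With total-count scaling these lists had 9 and 1, 10 and 5, and 6 and 10 genes higher and lower.

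The other receptors of the superfamily were split, with 4 of 9 called higher and 5 lower and a median of -0.21. Bmpr1b, a type I receptor for bone morphogenetic proteins, changed most upward, from 7.78 ± 0.819 to 19.4 ± 1.02 CPM. Acvr1b, the type I receptor of activin and a target of SB431542, fell from 52.1 ± 1.27 to 18.6 ± 2.61 CPM. Acvr1c, the other such receptor, had no count in the TGF-b1 libraries and 0.158 CPM in mock, too low for a fold. Amhr2 was also very low, at 0.0296 CPM with TGF-b1 and 0.380 CPM in mock. Both are among the 5 called lower. Of 6 targets of Smad1 and Smad5, the branch that Acvrl1 feeds, 0 were called higher and 6 lower, with a median of -0.59. Id1, a classical member of this list, was at 86.4 ± 2.87 CPM in mock and 58.1 ± 1.11 CPM with TGF-b1.

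The comparison of SB431542 with TGF-b1 against TGF-b1 alone asked which of these levels depended on the inhibited kinases while TGF-b1 was present. All 3 ligands fell, Tgfbr3 rose 5.55-fold, Tgfbr2 rose 1.36-fold, and Tgfbr1 fell 1.72-fold. All 8 genes were called, 4 higher and 4 lower, in a comparison in which 79.7% of all genes tested were called, 41.4% higher and 38.3% lower. Because this comparison and TGF-b1 against mock share the TGF-b1 libraries, a high value there raises one fold change and lowers the other, and the values are given side by side only.

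Tgfb1 was at 97.1, 100.7 and 92.9 CPM with SB431542 added, below every TGF-b1 library, with a log2 fold change of -1.06 ± 0.030 (adjusted p = 4.53e-31). Tgfb3 was at 214.5, 218 and 212 CPM, also below every TGF-b1 library (-0.65 ± 0.020, adjusted p = 8.35e-28). Tgfb2 was at 50.2, 49.3 and 48.4 CPM and changed less (-0.49 ± 0.044, adjusted p = 1.01e-14). The ligand genes thus fell in the inhibitor group by different amounts. With total-count scaling Tgfb2 changed by -0.23 and Tgfb3 by -0.39, both still called. Tgfbr3 was at 348, 350.1 and 348 CPM, more than any other undifferentiated group, with a log2 fold change of 2.47 ± 0.030 (adjusted p = 3.70e-46) that 8.37% of the genes tested exceeded in size. Mesothelial markers rose over the same comparison to a sum of 2169 to 2177 CPM with 8 of 10 called higher, adipocyte markers to 4297 to 4320 CPM with 10 of 10 called higher, and preadipocyte markers to 3948 to 3965 CPM with 8 of 10 called higher; their part in the level of Tgfbr3 was not tested. Tgfbr2 was at 324, 323 and 327 CPM, above every TGF-b1 library (0.44 ± 0.021, adjusted p = 4.52e-21, and 0.70 with total-count scaling).

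Tgfbr1, which encodes the receptor kinase that SB431542 blocks, was at 75.8, 76.1 and 77.5 CPM with SB431542 added. Each of these libraries was below every library of the other undifferentiated groups. The log2 fold change against TGF-b1 was -0.78 ± 0.034 (adjusted p = 2.12e-24). Acvrl1, the type I receptor that SB431542 is not known to block, was at 76.7, 78.6 and 79.2 CPM (0.19 ± 0.039, adjusted p = 1.09e-05), and Eng was at 318, 309 and 315 CPM (0.18 ± 0.020, adjusted p = 1.33e-09). Both were above every TGF-b1 library, but the size of the change depended on the processing. With the most abundant transcript only, Acvrl1 was at 0.01 and not called (adjusted p 0.958, range over alternatives 1.43e-14 to 0.958), while Eng was at 0.37. With total-count scaling Acvrl1 changed by 0.45 and Eng by 0.44. The endothelial marker sum rose over the same comparison to between 998.5 and 1023 CPM, with 11 of 12 markers called higher, and its part in the levels of Acvrl1 and Eng was not tested. The pericyte and smooth muscle sum rose to between 866 and 893 CPM, with 5 of 8 markers called higher and 3 lower. Notch3 was at 320 against 37.7 CPM with TGF-b1 alone, and Cspg4 at 28.8 against 189.5 CPM. The part of cells with these markers in the levels of Acvrl1 and Eng was not tested either.

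Of the 10 TGF-b targets, 9 were called lower and 1 higher, with a median of -2.73 beside 0.04 for all genes tested. Pmepa1 was at 28.9 CPM and Smad7 at 56.5 CPM with SB431542 added, both below their mock levels. Of 15 latency genes, 11 were lower and 4 higher, with a median of -0.84. Lrrc32 was at 478 ± 7.64 CPM and Itgb5, a partner of integrin alpha v, at 159 ± 1.22 CPM, while Ltbp1 was at 98.9 ± 0.655 CPM, above its mock level of 34.5 CPM. Nrros, which holds latent ligand on macrophages and microglia, was at 32.3 CPM against 3.52 CPM with TGF-b1, and 11 of 12 macrophage markers were called higher over the same comparison, whose part in the result was not tested. The Smad and receptor control list had 6 higher and 12 lower, or 10 and 8 with total-count scaling. Of the 6 targets of Smad1 and Smad5, 6 were called higher, with a median of 0.91, and Id1 was at 130 ± 5.18 CPM. Of 9 other family receptors, 4 were higher and 5 lower, with Acvr1b back at 51.4 CPM and Bmpr2, a type II receptor of bone morphogenetic proteins, at 104 CPM against 184 CPM. Those called higher include the very low Acvr1c, at 1.255 CPM, and Amhr2, at 1.261 CPM.

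The comparison of SB431542 with TGF-b1 against mock asked how far the doubly treated cells stood from untreated ones. Tgfbr1 was 1.88-fold lower than in mock, while Tgfbr3, Eng and Tgfbr2 were 1.19- to 1.29-fold higher. Of the ligands, Tgfb2 was 1.19-fold higher, as much as Tgfbr2, while Tgfb1 was 1.10-fold and Tgfb3 1.03-fold lower. Of the 8 genes, 7 were called, 5 higher and 2 lower, in a comparison in which 61% of all genes tested were called, 30.6% higher and 30.4% lower. These libraries share the mock group with the comparison of TGF-b1 against mock.

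The log2 fold change of Tgfbr1 was -0.91 ± 0.033 (adjusted p = 1.48e-26), and 12.5% of the genes tested changed by more in either direction. Tgfbr3 changed by 0.37 ± 0.020, Eng by 0.34 ± 0.021 and Tgfbr2 by 0.25 ± 0.020, each with all libraries above mock. Adipocyte markers were also above mock, with 10 of 10 called higher and a median log2 fold change of 1.92. Of 10 mesothelial markers 1 was called higher and 7 lower, with sums of 2169 to 2177 against 2484 to 2523 CPM. Of 10 preadipocyte markers 5 were called higher and 3 lower. The part of cells with these markers in the levels of Tgfbr3, Eng and Tgfbr2 was not tested. Tgfb2, at 48.4 to 50.2 CPM against 40.7 to 42.8 CPM in mock, changed by 0.25 ± 0.049 (adjusted p = 7.91e-06). Tgfb1 changed by -0.14 ± 0.034 (adjusted p = 6.40e-04), but by -0.03 with total-count scaling (adjusted p 0.472, range over alternatives 2.58e-04 to 0.472). Tgfb3 was not called (-0.04 ± 0.022, adjusted p = 0.133), though its libraries, at 212 to 218 CPM, lay below those of mock, at 219.6 to 223 CPM. With total-count scaling Tgfb3 was called higher at 0.07 (adjusted p 0.0181, range 0.0181 to 0.363). For these ligands the direction or call against mock thus depended on the scaling. Acvrl1 changed by 0.09 ± 0.039 (adjusted p = 0.0433), with libraries at 76.7 to 79.2 CPM against 71.1 to 75.1 CPM. Without CD mock replicate 2 or replicate 2 or 3 of the inhibitor group its adjusted p was 0.284, 0.0989 and 0.129, with log2 fold changes of 0.05, 0.08 and 0.07. With the replicate block it was 0.0547, and with DESeq2 0.239 (range over alternatives 1.44e-05 to 0.525). With total-count scaling the change of Acvrl1 was 0.20, and with the most abundant transcript only -0.12. Tgfb2 was not called with the most abundant transcript only (0.26, adjusted p 0.196, range 4.38e-09 to 0.196).

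Of the 10 TGF-b targets, 0 were called higher and 10 lower than in mock, with a median of -1.30 beside 0.01 for all genes tested. Lox, which crosslinks collagen, was at 305 CPM against 3365 CPM in mock. The latency list had 5 genes higher and 10 lower, with a median of -0.32. The Smad and receptor control list had 2 higher and 10 lower, or 7 and 7 with total-count scaling, and the Smad1 and Smad5 targets had 4 higher and 0 lower. The endothelial sum was above that of mock with 9 of 12 markers called higher, and all 12 macrophage markers were called higher, in the group where Eng was highest among undifferentiated cells. Their part in the result was not tested.

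The comparison of HFD with CD mock cells asked whether diet left a trace in the same genes. Tgfb3 rose 1.34-fold and Tgfb1 1.2-fold, Tgfbr3 fell 1.25-fold and Tgfbr2 1.15-fold, and the other 4 genes rose by 1.09- to 1.12-fold. All 8 genes were called, 6 higher and 2 lower, with 53.7% of all genes tested called, 27.1% higher and 26.6% lower. With total-count scaling 5 were called, 3 higher and 2 lower.

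Tgfb3 was at 298, 293 and 300.2 CPM in HFD mock, above every CD mock library and below every TGF-b1 library. Its log2 fold change was 0.43 ± 0.021 (adjusted p = 3.27e-20), and 27.2% of the genes tested changed by more. Tgfb1 was at 131, 129 and 126 CPM, above every CD mock library (0.27 ± 0.032, adjusted p = 2.42e-09). Macrophages are a known source of Tgfb1, and 11 of 12 macrophage markers were called higher with a median log2 fold change of 2.60. Their sum rose from between 537 and 549 to between 2514 and 2541 CPM, with Adgre1 at 116 ± 1.12 against 16.03 ± 1.03 CPM. Against CD mock all 12 were also called higher with SB431542 added to TGF-b1, where Tgfb1 was at 96.9 against 107 CPM. The part of macrophages in the level of Tgfb1 was not tested. Tgfb2 was at 44.7, 45.3 and 47.0 CPM, and its change of 0.14 ± 0.050 (adjusted p = 0.0118) was not called without CD mock replicate 2 (0.12, adjusted p 0.0662) or HFD mock replicate 3 (0.11, adjusted p 0.0754), nor with total-count scaling or DESeq2 (range over alternatives 0.011 to 0.518).

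Tgfbr3 was at 214, 214 and 217 CPM in HFD mock, between the levels of CD mock and TGF-b1, with a log2 fold change of -0.33 ± 0.021 (adjusted p = 2.70e-16). The mesothelial marker sum was lower over the same comparison, at 654 to 667 CPM with all 10 markers called lower, as were 8 of 10 preadipocyte and 7 of 10 adipocyte markers, and their part in the result was not tested. Tgfbr2 was at 235, 240.4 and 237 CPM (-0.20 ± 0.021, adjusted p = 1.44e-09). This range overlapped with that of the TGF-b1 libraries, 233 to 244 CPM, so these neighbouring levels did not differ beyond their spread. Tgfbr1 was at 161, 157 and 162 CPM, above every other undifferentiated library (0.16 ± 0.028, adjusted p = 7.87e-06). Acvrl1 was at 85.1, 81.8 and 79.7 CPM (0.16 ± 0.038, adjusted p = 2.81e-04), and Eng at 272, 269.4 and 268 CPM (0.12 ± 0.021, adjusted p = 2.99e-05), overlapping with the TGF-b1 libraries at 271 to 285 CPM. Over the same comparison all 12 endothelial markers were called lower, with Cdh5, the cadherin of endothelial junctions, at 35.6 against 126 CPM, and their part in the levels of Acvrl1 and Eng was not tested. With total-count scaling neither gene was called (0.08 and 0.04), while Tgfbr1 (0.07), Tgfb1 and Tgfb3 were. With the most abundant transcript only, Acvrl1 (-0.22), Eng (-0.02) and Tgfbr1 (0.19, adjusted p 0.0603, range over alternatives 2.59e-06 to 0.0603) were not called.

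Of the 10 TGF-b targets, 9 were called higher with HFD and 0 lower, with a median of 0.76 beside -0.01 for all genes tested. Tgfbi, a secreted matrix protein, changed most, from 21.1 to 123 CPM. The latency list had 9 genes higher and 6 lower, with Thbs1 at 6768 CPM against 2465 in CD mock and Itgb8 at 5.94 CPM. Nrros was at 35.2 CPM against 7.70 CPM in CD mock. The Smad and receptor control list had 12 higher and 5 lower, or 6 and 7 with total-count scaling. Smad3 was at 68.1 CPM, lower than in CD mock by 1.0 on the log2 scale. The other family receptors had 2 higher and 2 lower of 9, or 1 and 4 with total-count scaling, and a median of -0.37. Acvr2a, a type II receptor of activin, was higher, at 55.6 against 36.9 CPM. Acvr1b was lower, at 37.8 against 52.1 CPM. Of the Smad1 and Smad5 targets 2 were higher and 2 lower.

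The comparison of Itga5-High with Itga5-Low asked how differentiated cells sorted for high or low integrin alpha 5 differed. Tgfb1 was the ligand higher in Itga5-High, by 1.52-fold, while Tgfb2 and Tgfb3 were 1.24- and 1.31-fold lower. Among the receptors, Eng was 1.5-fold lower in Itga5-High, Tgfbr3, Tgfbr2 and Acvrl1 were 1.14- to 1.27-fold lower, and Tgfbr1 was 1.07-fold higher. All 8 genes were called, 2 higher and 6 lower, with 53.5% of 13468 genes tested called, 27% higher and 26.5% lower.

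Tgfb1 was at 87.5, 86.7 and 89.0 CPM in Itga5-High and at 59.3, 56.6 and 57.6 CPM in Itga5-Low. The groups stood far apart, with a log2 fold change of 0.60 ± 0.038 (adjusted p = 5.87e-16) that 11.8% of the genes tested exceeded in size. Tgfb3 was at 64.9, 59.3 and 65.9 CPM in Itga5-High and at 87.1, 79.9 and 83.4 CPM in Itga5-Low, lower in each Itga5-High library (-0.39 ± 0.041, adjusted p = 4.77e-10). Tgfb2, the least abundant ligand, was at 22.1, 21.2 and 19.1 CPM against 26.6, 26.1 and 25.1 CPM (-0.31 ± 0.068, adjusted p = 1.53e-04). The ligand genes thus moved in opposite directions in this comparison. The sum of 9 macrophage markers was 43.6 to 44.7 CPM in Itga5-High and 22.5 to 23.03 CPM in Itga5-Low, with Csf1r at 29.5 ± 0.626 against 9.54 ± 0.690 CPM, while Lyz2 was at 6.06 and 6.02 CPM and Adgre1 at 0.172 and 0.26 CPM. The part of any cells with these markers in the level of Tgfb1 was not tested.

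Eng was at 63.2, 66.8 and 65.0 CPM in Itga5-High and at 96.8, 98.8 and 96.7 CPM in Itga5-Low, with no overlap and a log2 fold change of -0.59 ± 0.037 (adjusted p = 5.28e-16). Of 9 endothelial markers tested, 2 were called lower and 1 higher. Tek, an endothelial receptor kinase, was at 8.27 ± 0.820 CPM in Itga5-High and 13.4 ± 0.654 CPM in Itga5-Low, Tie1 at 0.536 and 0.994 CPM, and Kdr, a receptor of vascular endothelial growth factor, at 4.04 ± 0.524 and 2.62 ± 0.192 CPM. Pecam1 was at 3.07 ± 0.269 and 2.83 ± 0.0717 CPM, and the part of any cells with these markers in the level of Eng was not tested. Tgfbr3 was at 305, 294 and 306 CPM against 382, 379.9 and 384 CPM (-0.34 ± 0.018, adjusted p = 1.00e-14). Tgfbr2 was at 368, 369 and 370.3 CPM against 436, 439 and 431 CPM (-0.24 ± 0.016, adjusted p = 9.83e-12). These receptors were lower in every Itga5-High library, as was Acvrl1, at 86.7, 87.1 and 91.4 CPM against 102, 100 and 101 CPM (-0.19 ± 0.033, adjusted p = 5.15e-06). Tgfbr1 was at 100.1, 96.3 and 95.6 CPM against 92.9, 92.5 and 88.7 CPM (0.09 ± 0.034, adjusted p = 0.0152). Without Itga5-High replicate 1 or Itga5-Low replicate 3 its change was 0.07 in each case (adjusted p 0.133 and 0.0907), and it was not called with DESeq2 or total-count scaling, nor with the most abundant transcript only, where it was -0.12 (range over alternatives 0.0144 to 0.502). With that setting Tgfb2 changed by -0.54, and Acvrl1, at -0.27, was not called (adjusted p 0.224, range 1.80e-07 to 0.224). The adipocyte marker sum was 7830 to 7834 CPM in Itga5-High and 8461 to 8499 CPM in Itga5-Low. Of these 10 markers 3 were called higher and 5 lower, or 1 and 6 with total-count scaling. The preadipocyte sum was 2320 to 2356 against 2465 to 2507 CPM, with 2 of 10 called higher and 6 lower. The part of cells with these markers in the levels of the receptors was not tested.

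Of the 10 TGF-b targets, 7 were higher and 2 lower in Itga5-High, with a median of 0.13 beside -0.00 for all genes tested. Postn, a matricellular protein, was at 4757 against 6771 CPM. Of 14 latency genes tested, 4 were higher and 7 lower. Ltbp1 was higher, at 36.9 against 22.2 CPM, as was Lrrc32, at 746 against 503 CPM. Dcn, of the same list, was lower, at 310 against 500 CPM, as was Ltbp3, at 293 against 363 CPM. Of the other family receptors 0 were higher and 6 lower of 8 tested (median -0.35), among them Acvr2a at 80.95 against 127 CPM. In the Smad and receptor control list 7 were higher and 8 lower, and in the Smad1 and Smad5 targets 3 and 0.

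The genes most like each member were sought among 9694 genes with a mean of at least 10 CPM, by the root mean square distance between centred log2 CPM means of the 4 undifferentiated groups. For Tgfbr3, whose pattern was the most marked, they were Sh3tc1 (distance 0.07), Abca1, which exports cholesterol (0.09), and Myo18a, an unconventional myosin (0.10). Abca1 was at 201 CPM in CD mock, 47.4 with TGF-b1, 228 with SB431542 added and 144 in HFD mock. For Tgfbr1 they were Ubash3b (0.06), Denn2b (0.08) and Gmds (0.08), and for Tgfb1 Noa1, Micu3 and Atg4d (0.04 each). For Tgfb2 they were Duox1, Ndufaf4 and Tmod2, and for Tgfb3 Ccdc124, Impdh1 and Prmt7. Tgfbr2, Acvrl1 and Eng varied so little that many genes lay near them, with distances of 0.01 to 0.02 for Vmac, Uqcc3 and Triobp, for Zhx3, Mbd2 and Bsdc1, and for Zcchc4, Oma1 and Rcan1. Among the members themselves, Acvrl1 and Eng were the nearest pair (0.14), followed by Tgfbr2 and Eng (0.15) and by Tgfb1 and Tgfb3 (0.18). The distances rest on 4 group means and carry no test.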

How the data were processed

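Poly(A) RNA was sequenced in 18 libraries of mouse primary preadipocytes, with depth as given above. For each RefSeq transcript the authors deposited an estimated count, which need not be whole and is not scaled to library size. Per the submitters' processing notes, fastp, STAR, featureCounts and genome build mm10 were used. Their versions, the use of strand and the way reads were divided among transcripts are not stated. The transcripts of a symbol were added up and the sums rounded (Python 3.11.15, pandas 2.3.3). Genes were tested with the quasi-likelihood test of edgeR 4.0.16 (R 4.3.3; filterByExpr, TMM), the 12 undifferentiated and 6 differentiated libraries separately, with Benjamini-Hochberg adjustment over all genes tested. Calls have an adjusted p under 0.05. CPM use the TMM factors. For standard errors, dispersions under 1e-04 were raised to that value in a separate fit. Standard errors and intervals therefore do not come from the fit that gave the p-values. All 8 members passed the filter. Alternatives were total-count scaling, no filter, a dispersion floor, DESeq2 1.42.0, a replicate block, the most abundant transcript only, fits of 2 groups and leaving out each library. The test was also run on simulated counts, with a larger dispersion than the common value fitted here (9.77e-05) and few genes changed. That run therefore does not speak for error rates in these libraries. Members, lists and tests were chosen with earlier results of these data known. Genes named are the 8 members, those of largest change on each list or needed as background of a member, and the 3 most like each member, unnamed gene models passed over. Smad6 and Dcn are each on 2 of the lists, Dcn as a latency gene and as a preadipocyte marker. Standard deviations are over 3 libraries, and counts limit the precision of Tgfb2 most. Figures were drawn with matplotlib 3.10.9.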

Additional observations from a re-analysis of the deposited data

How the results depend on the processing

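Of 512 log2 fold changes of members recomputed under alternatives, 476 kept their direction and side of the threshold, 30 were no longer called and 6 changed direction. Changes of direction came mostly with the most abundant transcript only, which tests 1 transcript for a gene: Eng was at -0.072 for TGF-b1 against mock and at -0.017 for HFD, Acvrl1 at -0.12 for SB431542 against mock and at -0.22 for HFD, and Tgfbr1 at -0.12 for Itga5-High. Tgfb3 was at 0.067 for SB431542 against mock with total-count scaling. Members called fell from 8 to 5 for TGF-b1 against mock and to 4 for HFD with the most abundant transcript only, and to 5 for HFD with total-count scaling. Genes called in the Itga5 comparison fell from 7199 to 4444 with the most abundant transcript only. The cause was not tested. Same-numbered libraries did not deviate together (r between -0.022 and 0.024, 0 of 15 pairs over 0.1), so the numbers are not taken as pairs, and the fit with the replicate block called 9472 genes in place of 9517 for TGF-b1 against mock. The block ended 1 member's call, Acvrl1 for SB431542 against mock (0.08, adjusted p 0.0547, range over alternatives 1.44e-05 to 0.525). Of the members, Tgfb2 had the lowest counts, 231 in an Itga5-High library, and so the widest standard errors.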

Other observations

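Acvrl1 was counted as 5 transcripts, and how its estimated counts were divided was looked at after the values were seen. The transcript that took 20.2 ± 6.88% of the counts in CD mock took 32.2 ± 4.61% in HFD mock, and its level was 14.9 ± 4.75 and 26.4 ± 2.93 CPM. Another, with 34.8 ± 3.0% in CD mock, had 27.0 ± 0.714% in HFD mock. The division of reads between these transcripts is the authors' estimate and was not tested.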
